A study of Mus musculus with 4 samples.

Results

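The genes described are 9 B cell and immunoglobulin genes, picked by name out of the 33981 genes in the joined count tables. They are *Ighm*, *Ighg2b* and *Ighg2c*, which encode constant regions of antibody heavy chains, *Igkc*, which encodes the constant region of the kappa light chain, *Jchain* and *Mzb1*, which serve antibody secretion, and *Cd79a*, *Cd79b* and *Ms4a1*, which encode proteins of the B cell surface. RNA came from coronal brain sections, with the prefrontal cortex in them, of male C57BL/6J mice aged 3 to 5 months. NT + Sham mice received saline for 28 days and sham surgery on day 7, in which the procedure was done without illumination. NT + Stroke mice received saline and a photothrombotic stroke on day 7, in which light on the skull activates the dye Rose Bengal and clots the vessels beneath. HT + Sham and HT + Stroke mice were infused over the same 28 days with angiotensin II, a model of hypertension, at a daily dose of 0.28 mg/kg, with the sham surgery or the stroke on day 7. Brains were taken at day 28, and each group holds 6 libraries, treated here as 1 mouse each.

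An antibody is built from heavy and light chains, each with a variable region that binds antigen and a constant region. A B cell that has not switched class uses the mu constant gene *Ighm*, and class switching joins the same variable region to a gamma, epsilon or alpha constant gene. Plasma cells are the differentiated B cells that secrete antibody and hold very large amounts of immunoglobulin RNA, while *Cd79a*, *Cd79b* and *Ms4a1* mark B cells that carry their receptor on the surface. The healthy brain parenchyma holds few B cells, and its borders, the meninges and choroid plexus, hold more. In bulk tissue, more cells of a type and more RNA per cell cannot be told apart.

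Total counts per library ran from 15922919 to 24865998, with a median of 18497216. In 3 libraries, genes of tissue injury went against the label. *Gfap*, the intermediate filament of astrocytes, had 11947 to 26698 counts in NT + Stroke libraries and 16490 to 29891 in 4 of the HT + Stroke libraries, but 4376 and 3616 in the libraries labelled HT + Stroke 1 and 6. It had 2533 to 4081 counts in 11 sham libraries and 10975 in the library labelled HT + Sham 6. *Cd68*, a lysosomal gene of phagocytes, showed the same split, with 345 and 294 counts in HT + Stroke 1 and 6 and 543 in HT + Sham 6, against 747 to 1916 in the other stroke libraries and 141 to 257 in the other sham libraries. HT + Stroke 3 stood apart in another way, since 17 genes of nasal mucosa and glands summed to 1028 CPM (the count scaled for library size by TMM) there and to 4.78 to 77.2 CPM in the rest of its group. The fits of the members were repeated without the first 3 of these libraries, and the main values are given beside the results. Since those libraries were picked by injury genes, fits without them favour genes that go with injury. Of the defining genes of cortex, *Snap25* and *Slc17a7* (neurons) and *Mbp* (myelin) were in every library.

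After stroke in NT mice, *Igkc* and *Jchain* rose, with no overlap between the groups, as was seen for 7.78% of all genes tested. *Mzb1* rose with overlapping groups and a call that was lost without any 1 of 5 libraries. *Ighm*, *Ighg2c* and *Cd79a* did not pass the test. After stroke in mice given angiotensin II none of the 5 genes with enough counts passed the test. Of all genes tested there, 0.544% were called higher, and *Igkc* ran from 5 to 1009 counts in HT + Stroke. *Igha* and *Igkc* led the switched heavy genes (without *Ighg2c*) and the light chain genes in most of the stroke libraries, while the leading variable gene differed from library to library. With *Ighg2c* counted in, *Igha* led only NT + Stroke 2 and 3 and HT + Stroke 2, 3 and 4.

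All libraries held reads of antibody genes, but at very unequal levels. Levels between genes were compared per length, as fragments per kilobase, scaled for library size (FPKM). In NT + Sham the median was 25.6 FPKM for *Ighm*, 3.85 for *Ighg2c* and 1.17 for *Igkc*. The other 6 genes had medians under 0.4 FPKM there, from 0.392 for *Cd79a* and 0.385 for *Jchain* to 0.0193 for *Ighg2b* and 0 for *Ms4a1*. In NT + Stroke *Igkc* reached a median of 16.1 FPKM and took the second place after *Ighm* at 32.1. *Ighm* and *Ighg2c* were also the steadiest members. Over the 12 sham libraries the SD was 13.8% of the mean for *Ighm* and 20.3% for *Ighg2c*, against 131% for *Igkc*. In single HT + Sham libraries the levels of *Ighm* and *Igkc* were closer, with 25.6 and 15.2 FPKM in library 6 and 20.3 and 7.37 FPKM in library 1.

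**Figure D1:**
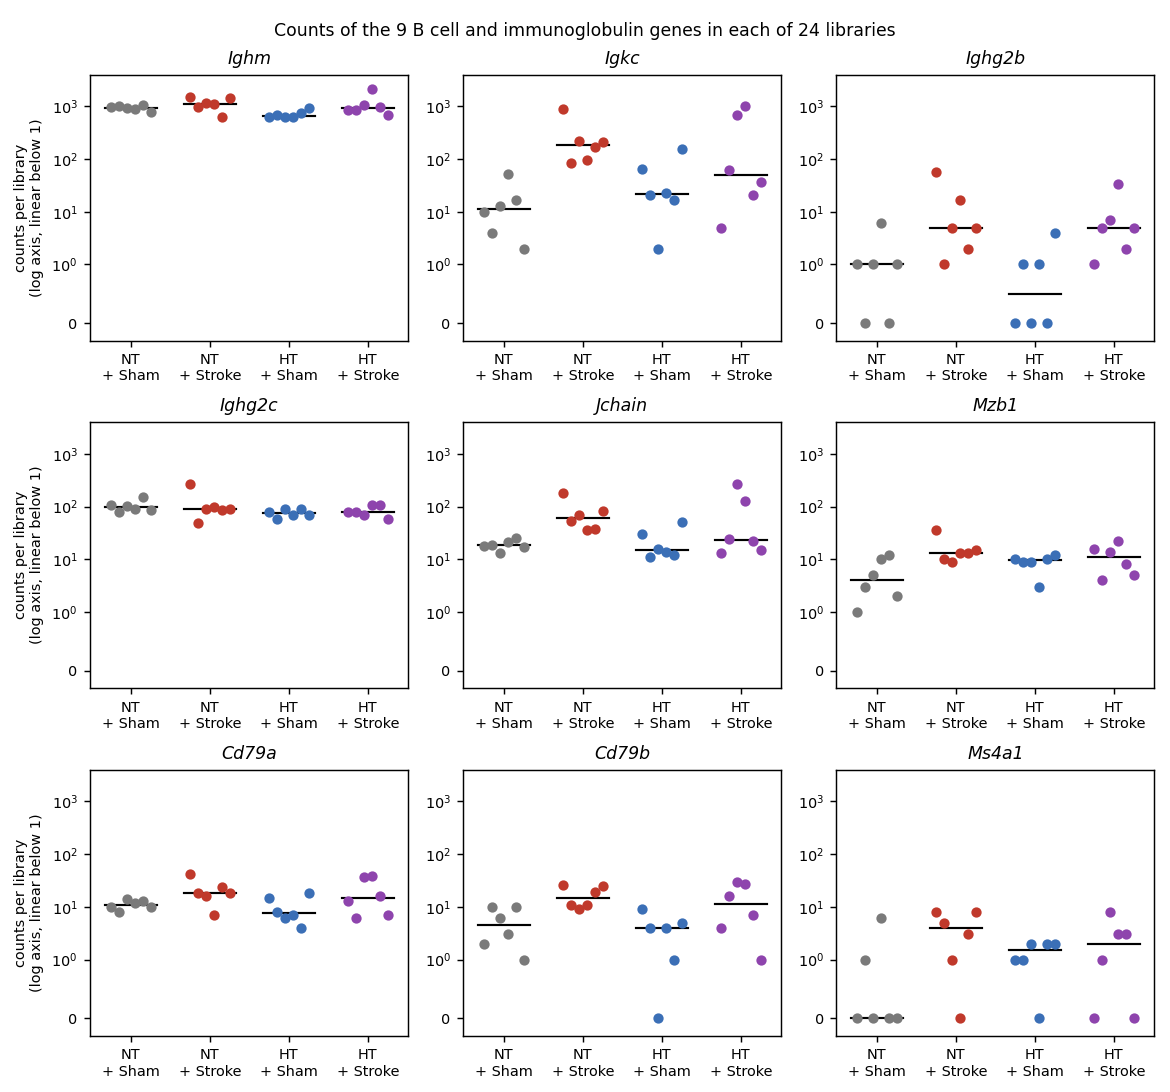
Counts of each of the 9 genes (log axis, linear below 1) in the 6 libraries of each group, libraries 1 to 6 from left to right, with the group median as a bar. *Ighm* and *Ighg2c* lie in narrow bands in the sham groups, with wider spread in the stroke groups, whereas *Igkc* and *Jchain* lie higher in the 6 NT + Stroke libraries than in NT + Sham and spread widely in HT + Stroke.

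*Igkc* lies on the plus strand at chr6:70726435-70726966 (GRCm38), and encodes the constant region shared by every kappa light chain. Most mouse antibodies carry kappa, so a read of this gene marks an antibody-producing cell whatever the antigen. The last 300 of its coding bases, from GENCODE release M21 on GRCm38 (chr6:70726455-70726754), are shown because this gene had the largest log2 fold change among the members tested in NT + Stroke vs. NT + Sham. Capitals mark the 3 cysteine codons, of which the last is the codon before the stop and encodes the residue that bonds to the heavy chain.
Igkc: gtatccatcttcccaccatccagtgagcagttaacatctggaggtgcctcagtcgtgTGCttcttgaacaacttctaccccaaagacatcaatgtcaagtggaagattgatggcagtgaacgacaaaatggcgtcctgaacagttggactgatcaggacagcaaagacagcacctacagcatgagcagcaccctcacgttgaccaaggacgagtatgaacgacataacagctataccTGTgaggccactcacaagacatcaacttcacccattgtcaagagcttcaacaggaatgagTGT

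Counts of *Igkc* were 10, 4, 13, 53, 17 and 2 in NT + Sham libraries 1 to 6 and 891, 83, 224, 96, 168 and 208 in NT + Stroke. Counts were 65, 21, 2, 23, 17 and 158 in HT + Sham and 5, 63, 684, 1009, 21 and 37 in HT + Stroke. All NT + Stroke libraries were above all NT + Sham libraries, while the HT + Stroke libraries ran from the level of the lowest sham libraries to the highest count of the study. On the CPM scale the mean was 14.1 ± 16.2 in NT + Stroke, against 0.869 ± 1.01 in NT + Sham (SD, n = 6). The log2 fold change was 4.01 ± 0.860 (SE), with an adjusted *P* of 0.00611 in the edgeR quasi-likelihood test over 16835 genes. Of those genes 14.4% were called higher and 11.5% lower at an adjusted *P* under 0.05, and of the 9 members 6 passed the count filter, 3 were called higher and 0 lower. Without NT + Stroke 1, the library with 891 counts, the log2 fold change was 3.13 ± 0.584 (edgeR adjusted *P* = 0.00324). Groups that did not overlap in CPM, with stroke higher, were seen for 7.78% of the genes tested and, among the members, for *Igkc* and *Jchain*.

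The lincRNA *Gm30211* spans *Igkc* on the same strand, and had 0 to 6 counts per library in the tables. Whether the libraries kept strand is not given in the sources used here.

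In mice given angiotensin II the same comparison did not pass the threshold. The mean of *Igkc* was 15.4 ± 22.3 CPM in HT + Stroke, against 2.58 ± 2.90 CPM in HT + Sham (SD, n = 6), a log2 fold change of 2.56 ± 1.23 (edgeR adjusted *P* = 0.325). Of 16741 genes in that comparison 0.544% were called higher and 0.102% lower, and of the 9 members 5 passed the filter and 0 were called. Without the libraries labelled HT + Stroke 1 and 6 and HT + Sham 6, the difference was 3.89 ± 1.22 on the log2 scale (edgeR adjusted *P* = 0.109). In that smaller comparison 6.81% of 16956 genes were called higher and 1.66% lower, and of the 5 members tested still 0 were called. Without HT + Stroke 3 alone it was 2.23 ± 1.30, and without HT + Stroke 4 alone 1.57 ± 1.17. HT + Stroke 5 had 21 counts of *Igkc* beside 18290 counts of *Gfap*, and HT + Sham 6 had 158 beside 10975.

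**Figure D2:**
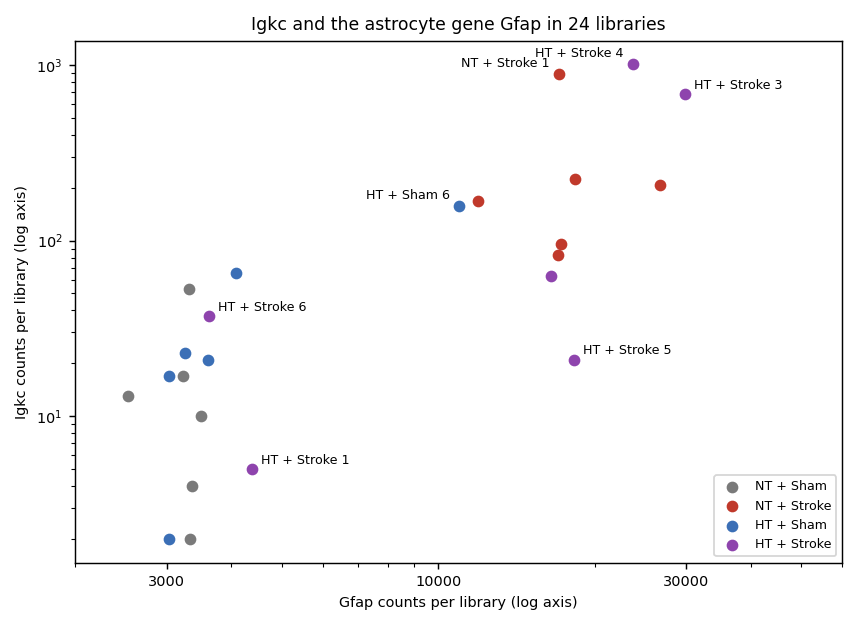
Counts of *Igkc* against counts of *Gfap* in each of the 24 libraries, both on log axes, with the libraries named in the text labelled. The library labelled HT + Sham 6 lies beside the stroke libraries and those labelled HT + Stroke 1 and 6 lie with the sham libraries, while HT + Stroke 5 has 18290 counts of *Gfap* with 21 of *Igkc*.

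*Jchain* encodes the joining chain that links IgM and IgA into polymers, and is made in antibody-secreting cells (chr5:88519809-88527891, minus strand). Counts were 18, 19, 13, 21, 25 and 17 in NT + Sham and 177, 54, 68, 36, 38 and 82 in NT + Stroke. Counts were 30, 11, 16, 14, 12 and 52 in HT + Sham and 13, 24, 266, 129, 22 and 15 in HT + Stroke. As for *Igkc*, all NT + Stroke libraries were above all NT + Sham libraries, and HT + Stroke 3 and 4 stood above the other HT libraries. Mean levels were 3.81 ± 2.80 CPM in NT + Stroke, against 0.982 ± 0.157 CPM in NT + Sham (SD, n = 6), a log2 fold change of 1.94 ± 0.390 (edgeR adjusted *P* = 0.00176). *Jchain* remained called when each library was left out in turn, with log2 fold changes of 1.47 to 2.13. In HT + Stroke vs. HT + Sham the log2 fold change was 1.64 ± 0.762 (edgeR adjusted *P* = 0.304), and 2.46 ± 0.711 (adjusted *P* = 0.0668) without the 3 libraries that went against their labels. Without HT + Stroke 3, which held 266 of the counts, it was 0.83 ± 0.629 (adjusted *P* = 0.489).

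*Mzb1* encodes a chaperone of the endoplasmic reticulum that helps assemble and secrete immunoglobulin. Counts were low throughout, at 1, 3, 5, 10, 12 and 2 in NT + Sham and 36, 10, 9, 13, 13 and 15 in NT + Stroke. Counts were 10, 9, 9, 3, 10 and 12 in HT + Sham and 16, 4, 14, 22, 8 and 5 in HT + Stroke. The NT groups overlapped, and in counts HT + Stroke 1, 3 and 4 exceeded every HT + Sham library. *Mzb1* rose from 0.284 ± 0.219 to 0.792 ± 0.536 CPM with stroke in NT mice (SD, n = 6), a log2 fold change of 1.44 ± 0.482 (edgeR adjusted *P* = 0.0352). This call rested on single libraries: without NT + Stroke 1 the difference was no longer called (adjusted *P* = 0.119), and without NT + Sham 1, 2, 3 or 6 the adjusted *P* lay between 0.0519 and 0.0761. In HT + Stroke vs. HT + Sham *Mzb1* was below the count filter.

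*Ighm* encodes the mu heavy chain of IgM, the first class made by every B cell (chr12:113418558-113422730, minus strand). Counts were 957, 1014, 925, 869, 1042 and 783 in NT + Sham and 1517, 975, 1132, 1114, 622 and 1463 in NT + Stroke. Counts were 634, 692, 632, 636, 736 and 946 in HT + Sham and 835, 865, 1035, 2095, 980 and 694 in HT + Stroke. All groups overlapped, although 4 of 6 NT + Stroke libraries were above every NT + Sham library in CPM, and the highest library, HT + Stroke 4, was also the highest for *Igkc*. The log2 fold change was 0.19 ± 0.179 in NT + Stroke vs. NT + Sham (edgeR adjusted *P* = 0.488) and 0.54 ± 0.214 in HT + Stroke vs. HT + Sham (adjusted *P* = 0.227). Without HT + Stroke 4 the latter was 0.23 ± 0.0755 (adjusted *P* = 0.208), and without the 3 libraries that went against their labels it was 0.73 ± 0.241 (adjusted *P* = 0.0998). NT + Sham held 5590 counts of *Ighm* over its 6 libraries beside 99 of *Igkc*, and NT + Stroke held 6823 beside 1670.

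*Ighg2c* and *Ighg2b* encode gamma heavy chains of switched B cells, and lie next to each other on chromosome 12. They are close in sequence, with 87.6% equal bases over the 291 bases of the first constant domain and an exact run of 78 bases, so reads could be split between them. The hinge exon, which joins the antigen-binding arms to the stem of the antibody, differs between the gamma genes in length and in its cysteines. Hinge exons of the 4 mouse gamma genes are shown in GRCm38, minus strand, 5′ to 3′, with cysteine codons in capitals, at chr12:113288263-113288325 for *Ighg2c*, chr12:113307261-113307326 for *Ighg2b*, chr12:113329844-113329882 for *Ighg1* and chr12:113360529-113360576 for *Ighg3*.
Ighg2c: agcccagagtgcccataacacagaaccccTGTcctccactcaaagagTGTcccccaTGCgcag
Ighg2b: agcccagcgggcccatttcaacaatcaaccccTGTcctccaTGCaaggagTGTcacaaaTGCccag
Ighg1: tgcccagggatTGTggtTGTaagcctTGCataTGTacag
Ighg3: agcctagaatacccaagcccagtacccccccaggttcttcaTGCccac

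The hinges hold 3, 4, 4 and 1 cysteine codons, which form the bonds between paired heavy chains. Counts of *Ighg2c* were 109, 78, 102, 90, 149 and 85 in NT + Sham and 271, 49, 91, 99, 87 and 90 in NT + Stroke. Counts were 79, 57, 90, 70, 89 and 70 in HT + Sham and 79, 80, 68, 105, 108 and 58 in HT + Stroke. Apart from NT + Stroke 1, the libraries of all groups lay in one range. The log2 fold change was 0.09 ± 0.347 in NT + Stroke vs. NT + Sham (edgeR adjusted *P* = 0.891). It was -0.40 ± 0.160 without NT + Stroke 1 (adjusted *P* = 0.0825), and 0.06 ± 0.168 in HT + Stroke vs. HT + Sham (adjusted *P* = 0.897), with 0.06 ± 0.199 without the 3 libraries that went against their labels.

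*Ighg2b* had 1, 0, 1, 6, 0 and 1 counts in NT + Sham and 57, 1, 5, 17, 2 and 5 in NT + Stroke. It had 0, 1, 0, 1, 0 and 4 counts in HT + Sham and 1, 5, 7, 34, 2 and 5 in HT + Stroke. Reads were thus nearly absent from the sham libraries, where a count of 0 allows up to 3, and high in single stroke libraries. *Ighg2b* was below the filter in both stroke comparisons. In a fit without the filter, of every gene with a count, its log2 fold change was 3.07 ± 1.16 in NT + Stroke vs. NT + Sham (edgeR adjusted *P* = 0.127).

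*Cd79a* and *Cd79b* encode the pair of signalling chains that carry the B cell receptor to the surface. Counts of *Cd79a* were 10, 8, 14, 12, 13 and 10 in NT + Sham and 42, 18, 16, 7, 24 and 18 in NT + Stroke. Counts were 15, 8, 6, 7, 4 and 18 in HT + Sham and 13, 6, 36, 38, 16 and 7 in HT + Stroke. The groups overlapped in both comparisons. The log2 fold change of *Cd79a* was 0.83 ± 0.371 in NT + Stroke vs. NT + Sham (edgeR adjusted *P* = 0.115) and 0.89 ± 0.450 in HT + Stroke vs. HT + Sham (adjusted *P* = 0.329). Without NT + Stroke 4, which had 7 counts, the first was 1.05 with an adjusted *P* of 0.0198, its only call under 20 alternatives. When each library was left out in turn, the first ran from 0.49 to 1.05. Without the 3 libraries that went against their labels the second was 1.35 ± 0.495 (adjusted *P* = 0.118).

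Counts of *Cd79b* were 2, 10, 6, 3, 10 and 1 in NT + Sham and 26, 11, 9, 11, 19 and 25 in NT + Stroke. Counts were 9, 4, 0, 4, 1 and 5 in HT + Sham and 4, 16, 29, 27, 7 and 1 in HT + Stroke. NT + Stroke lay mostly above NT + Sham, with a small overlap. *Cd79b* was below the filter in both stroke comparisons, and its log2 fold change in the fit of all genes was 1.51 ± 0.422 in NT + Stroke vs. NT + Sham (edgeR adjusted *P* = 0.00859). That fit covered 32743 genes, of which 7.05% were called higher, and called 4 of the 9 members. DESeq2 called 5 of the 9 members, adding *Ighg2b* (adjusted *P* = 0.00744) and *Cd79b* (adjusted *P* = 0.00893), where 12.8% of 21297 genes were called higher.

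*Ms4a1* encodes CD20, a surface protein of mature B cells that plasma cells lose. It had 0, 1, 0, 6, 0 and 0 counts in NT + Sham and 8, 5, 1, 0, 3 and 8 in NT + Stroke. It had 1, 1, 2, 0, 2 and 2 counts in HT + Sham and 0, 1, 8, 3, 3 and 0 in HT + Stroke. No library exceeded 8 counts, and *Ms4a1* was below the filter in every comparison.

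In both stroke comparisons the log2 fold change of all 9 members was above 0 in the fit of all genes. For *Ighg2c* it was 0.07 ± 0.380 in NT mice and 0.05 ± 0.178 in HT mice (SE), so each error exceeded the difference. In the filtered fit the sign of *Ighg2c* turned without single libraries, to -0.40 without NT + Stroke 1 and to -0.02 without HT + Stroke 4. The members share libraries, so their signs are not independent. The median over the members was 1.51 in NT + Stroke vs. NT + Sham, against -0.02 over the 32743 genes with a count, and 0.88 in HT + Stroke vs. HT + Sham, against 0.01. In HT + Stroke vs. HT + Sham no member separated the groups, which 0.579% of the genes tested did. The comparisons of stroke with sham share no library with each other, but HT + Stroke vs. NT + Stroke and HT + Sham vs. NT + Sham reuse their libraries.

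**Figure D3:**
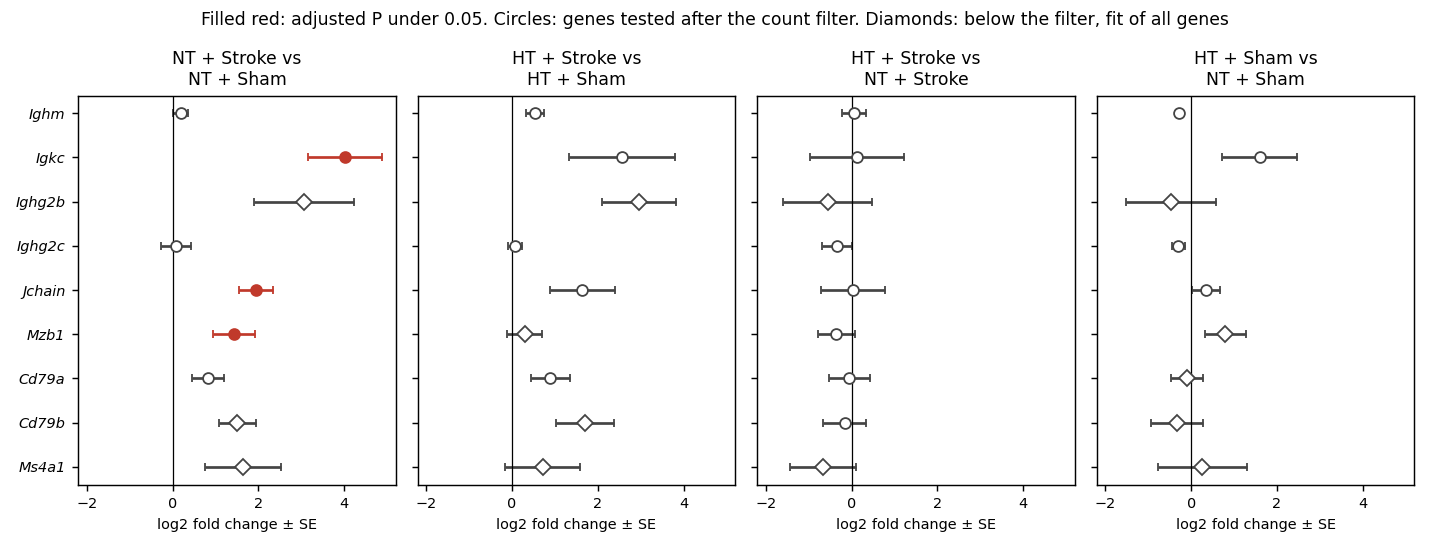
Log2 fold change (x axis) with its SE for each of the 9 genes in 4 comparisons of 6 libraries against 6. Filled red circles mark an adjusted *P* under 0.05, open circles genes tested without a call, and diamonds genes below the count filter with values from the fit of all genes. Filled points occur for *Igkc*, *Jchain* and *Mzb1* in NT + Stroke vs. NT + Sham and nowhere else.

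Whether angiotensin II altered these genes was asked in 3 ways. In HT + Stroke vs. NT + Stroke 0% of 17008 genes were called higher and 0% lower in edgeR, 1230 had an unadjusted *P* under 0.05, and of the 7 members tested 0 did. The log2 fold change was 0.13 ± 1.09 for *Igkc* and 0.03 ± 0.751 for *Jchain* (SE), so that each error exceeded the difference itself. Without the libraries labelled HT + Stroke 1 and 6 the values were 0.67 ± 1.06 and 0.49 ± 0.727, and no member was called. In HT + Sham vs. NT + Sham 0% of 16581 genes were called higher and 0% lower, with 1332 at an unadjusted *P* under 0.05. There *Ighm* was at 40.3 ± 4.02 CPM in HT + Sham, against 49.0 ± 4.82 CPM in NT + Sham (SD, n = 6), a log2 fold change of -0.28 ± 0.0812 (edgeR unadjusted *P* = 0.00292, adjusted *P* = 0.406). All 6 HT + Sham libraries lay below the NT + Sham median of 48.4 CPM, and the ranges overlapped. *Igkc* differed by 1.59 ± 0.866 in that comparison (adjusted *P* = 0.722), and by 0.80 ± 0.765 without HT + Sham 6, where *Ighm* differed by -0.33 ± 0.0778.

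The interaction asks whether the stroke difference itself depended on angiotensin II. Of 17608 genes 0% were called higher and 0% lower in edgeR, and 1836 had an unadjusted *P* under 0.05. The difference in log2 fold change was -1.45 ± 1.54 for *Igkc* (adjusted *P* = 0.761), -1.14 ± 0.661 for *Mzb1* (adjusted *P* = 0.551) and -0.31 ± 0.890 for *Jchain*. A call in NT mice and none in HT mice is therefore not a shown difference between them. Without the 3 libraries that went against their labels the value for *Igkc* was -0.11 ± 1.46.

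The other constant genes are described by the antibody class that they encode. Whether their counts measure the classes present was not tested. *Igha* encodes the alpha chain of IgA, the class of mucosal surfaces. Its counts were 2, 6, 8, 37, 36 and 2 in NT + Sham, 221, 108, 103, 10, 51 and 106 in NT + Stroke, 4, 20, 9, 19, 11 and 49 in HT + Sham and 6, 93, 1184, 298, 8 and 39 in HT + Stroke. *Igha* rose in NT + Stroke vs. NT + Sham, with a log2 fold change of 2.69 ± 0.809 (edgeR adjusted *P* = 0.0316), and differed by 3.65 ± 1.22 in HT + Stroke vs. HT + Sham (adjusted *P* = 0.167). The call in NT mice was lost when NT + Sham 1, 2, 3 or 6 or NT + Stroke 1, 2 or 3 was left out, with log2 fold changes of 2.30 to 2.66 and edgeR adjusted *P* from 0.0523 to 0.0675. In HT mice the difference was 2.23 ± 0.970 without HT + Stroke 3 (adjusted *P* = 0.261), and 4.66 ± 1.25 without the 3 libraries that went against their labels (adjusted *P* = 0.0684). Of the switched heavy genes other than *Ighg2c* (*Ighg1*, *Ighg2b*, *Ighg3* and *Igha*), *Igha* had the most counts in 21 of 24 libraries and in 10 of 12 stroke libraries. Counts of *Ighg2c* exceeded those of *Igha* in every sham library. They also did so in NT + Stroke 1, 4 and 5 and in HT + Stroke 1, 5 and 6. Of the 11 constant genes analysed, 5 passed the filter in NT + Stroke vs. NT + Sham, 2 were called higher (*Igkc* and *Igha*) and 0 lower. Over all genes tested there, 14.4% were called higher and 11.5% lower. *Ighe* and *Iglc4* were not analysed here.

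Beside *Igha*, some heavy chain genes had most of their NT + Stroke counts in 1 library. NT + Stroke 6 had 183 counts of *Ighg1*, which encodes the heavy chain of IgG1, and the other NT + Stroke libraries had 0 to 7. NT + Stroke 1 had 212 counts of *Ighg3*, against 0 to 4 in the rest of its group. These 2 libraries held 183 of 195 and 212 of 222 counts of those genes in NT + Stroke. *Ighd*, which encodes the delta chain of IgD on naive B cells, had 3 to 20 counts in every library. HT + Stroke 3, with 1184 counts of *Igha*, was the library with the high nasal mucosa genes, and their part in the antibody counts was not tested.

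**Figure D4:**
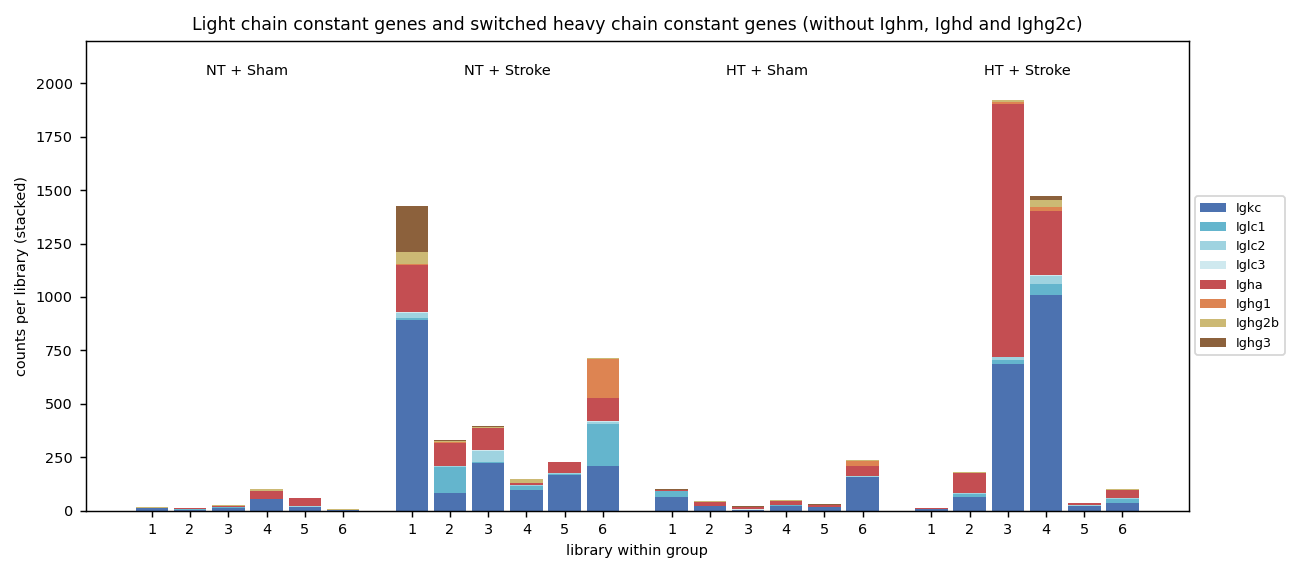
Stacked counts of light chain constant genes (blues) and switched heavy chain constant genes (reds and browns) in each library, without *Ighm*, *Ighd* and *Ighg2c*. NT + Stroke 1 carries *Ighg3*, NT + Stroke 6 carries *Ighg1* and *Iglc1*, and HT + Stroke 3 carries mostly *Igha* (1184 counts) and *Igkc* (684 counts).

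Light chains differed between libraries as well. Lambda light chains use *Iglc1*, *Iglc2* and *Iglc3* on chromosome 16. Counts of *Iglc1* were 10, 122, 3, 21, 4 and 197 in NT + Stroke, against 0 to 3 in NT + Sham, and *Iglc2* reached 54 counts in NT + Stroke 3. *Iglc3* had 0 counts in all NT + Sham libraries and at most 6 elsewhere. In NT + Stroke 2 and 6, lambda counts (127 and 211) exceeded kappa counts (83 and 208), whereas kappa led in the other 4 libraries of the group. To show how far reads of these genes can be told apart, 90 coding bases of each are given in GRCm38, minus strand, with the 21 positions that differ among them in capitals, at chr16:19061980-19062069 for *Iglc1*, chr16:19198761-19198850 for *Iglc2* and chr16:19065590-19065679 for *Iglc3*.
Iglc1: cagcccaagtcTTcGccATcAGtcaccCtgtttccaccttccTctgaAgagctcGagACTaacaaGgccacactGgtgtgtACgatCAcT
Iglc2: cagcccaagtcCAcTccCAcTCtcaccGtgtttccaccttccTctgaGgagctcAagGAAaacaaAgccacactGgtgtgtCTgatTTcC
Iglc3: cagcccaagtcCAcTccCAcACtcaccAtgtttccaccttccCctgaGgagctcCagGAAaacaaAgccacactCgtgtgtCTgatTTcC

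Over the aligned constant exon *Iglc1* and *Iglc2* were equal at 73.4% of bases with no exact run above 19 bases, so their reads separate well. *Iglc2* and *Iglc3* were equal at 96.5% with an exact run of 79 bases, and their division is uncertain. Summed over light chain genes, the lowest, median and highest library had 2, 13.5 and 56 counts in NT + Sham and 121, 246.5 and 928 in NT + Stroke. The same values were 7, 24 and 160 in HT + Sham and 5, 69.5 and 1103 in HT + Stroke. All constant genes together, dominated by *Ighm*, had medians of 58.1 CPM in NT + Sham, 86.8 in NT + Stroke, 47.3 in HT + Sham and 60.5 in HT + Stroke.

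Variable genes bear on the variety of B cell clones behind the reads, since the cells of a clone share their heavy and light variable genes. The tables hold 125 variable genes with 2532 counts in all, 67 of them with under 10 counts over all libraries. Counts summed over variable genes were 14, 10, 14, 35, 24 and 9 in NT + Sham and 579, 146, 144, 129, 83 and 318 in NT + Stroke. They were 63, 10, 4, 10, 16 and 89 in HT + Sham and 5, 54, 347, 385, 9 and 35 in HT + Stroke. All NT + Stroke libraries were above all NT + Sham libraries here too. Between 21 and 64 variable genes had a count in a NT + Stroke library (median 27.5), and 5 to 19 in a NT + Sham library. The number of genes seen also depends on the counts sampled, so neither clones nor cells can be counted from it.

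The variable gene with the most counts differed from library to library. In NT + Stroke 1 to 6 it was *Igkv4-70* (116 counts), *Iglv1* (79), *Iglv2* (45), *Iglv1* (36), *Igkv9-120* (18) and *Iglv1* (176). In HT + Stroke 1 to 6 it was *Igkv13-84* (2), *Igkv10-96* (21), *Igkv6-23* (20), *Igkv4-55* (63), *Igkv6-20* (4) and *Iglv1* (11). The 12 stroke libraries thus had 9 different leading genes. In HT + Sham *Iglv1* led library 1 (36 counts) and *Igkv4-55* led library 6 (22), and the leads of the other 4 had 3 or 4 counts. In NT + Sham no variable gene had more than 9 counts, with *Igkv6-20* leading libraries 1, 2 (tied in both) and 5, *Igkv20-101-2* library 3, *Igkv5-37* library 4 and *Gm43218* library 6. Over all libraries *Iglv1* had 405 counts, *Igkv4-70* 126, and *Igkv1-110* and *Igkv6-23* 108 each.

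Near-identical variable genes can share reads. In the pairs that led libraries, 120 coding bases are shown in GRCm38, minus strand, with the bases that differ within the pair in capitals, at chr16:19085202-19085321 for *Iglv1*, chr16:19260586-19260705 for *Iglv2*, chr6:69268067-69268186 for *Igkv4-70* and chr6:69607458-69607577 for *Igkv4-55*.
Iglv1: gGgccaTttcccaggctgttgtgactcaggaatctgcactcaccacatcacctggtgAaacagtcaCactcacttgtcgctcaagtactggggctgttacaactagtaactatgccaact
Iglv2: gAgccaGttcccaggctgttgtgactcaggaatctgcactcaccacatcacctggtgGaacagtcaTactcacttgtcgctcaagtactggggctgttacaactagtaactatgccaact
Igkv4-70: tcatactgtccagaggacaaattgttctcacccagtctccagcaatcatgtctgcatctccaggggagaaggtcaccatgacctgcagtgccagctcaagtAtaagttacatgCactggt
Igkv4-55: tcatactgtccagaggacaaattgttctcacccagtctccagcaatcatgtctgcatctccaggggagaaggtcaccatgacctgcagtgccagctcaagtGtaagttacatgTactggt

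The lambda pair differs at 4 of these positions and was equal at 97% of 305 bases, and the kappa pair differs at 2 and was equal at 94.3% of 299. *Igkv4-70* led NT + Stroke 1 and *Igkv4-55* led HT + Stroke 4 and HT + Sham 6. Variable regions also carry somatic mutations, so counts against germline genes are approximate.

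**Figure D5:**
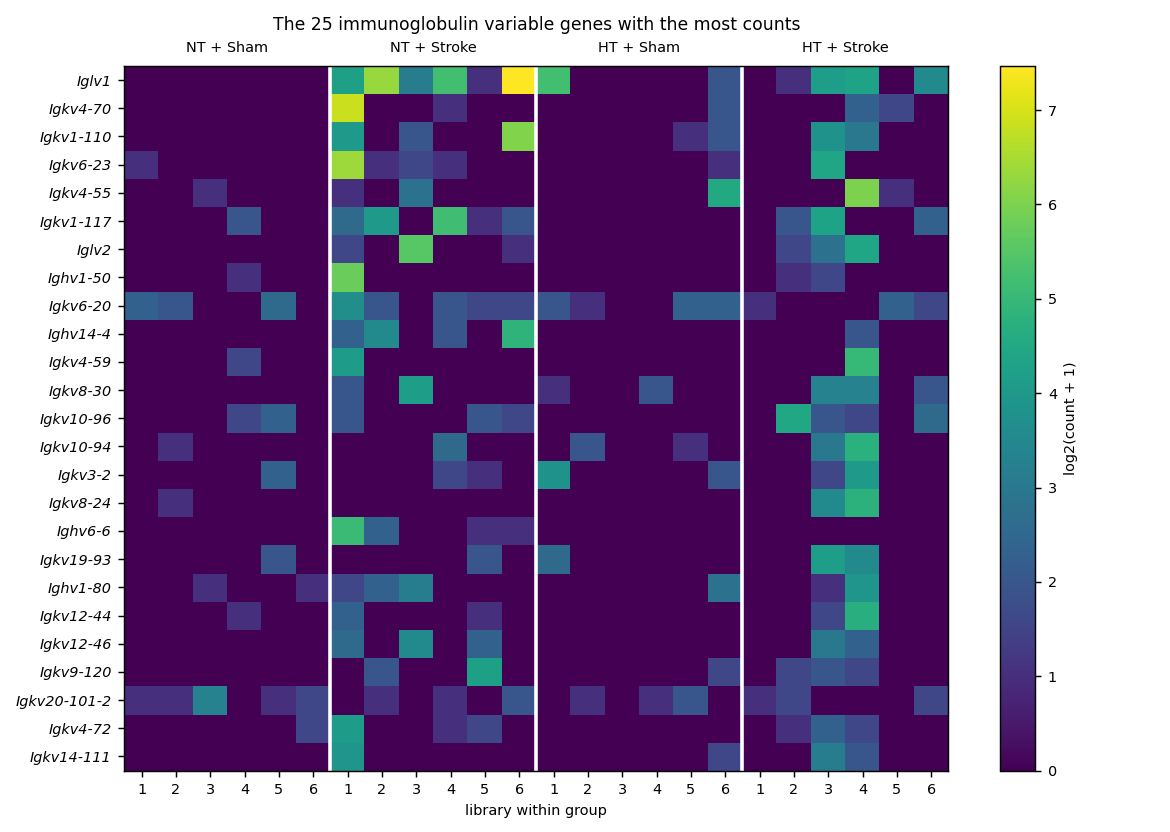
Log2(count + 1) of the 25 variable genes with the most counts (rows) in each library (columns). Bright cells sit in different rows for different stroke libraries, such as *Igkv4-70* in NT + Stroke 1 (116 counts), *Iglv1* in NT + Stroke 6 (176 counts) and *Igkv4-55* in HT + Stroke 4 (63 counts), and NT + Sham columns stay dark.

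Genes of B cell identity beyond the members were described from a list of 19, of which 9 passed the filter in NT + Stroke vs. NT + Sham, 5 were called higher and 0 lower. Over all genes tested there, 14.4% were called higher and 11.5% lower. *Cd22*, an inhibitory receptor of B cells that microglia also express, had 0 to 6 counts in NT + Sham and 44 to 95 in NT + Stroke, a log2 fold change of 4.56 ± 0.432 (edgeR adjusted *P* = 1.2e-06). *Cd72* rose by 1.78, the kinase gene *Btk* by 1.41, the tetraspanin gene *Cd37* by 1.13 and *Tnfrsf13c*, the receptor for the survival factor BAFF, by 1.12 on the log2 scale. The call of *Tnfrsf13c* was lost without NT + Sham 1, 2, 3 or 4 or NT + Stroke 1, 4 or 5, with an edgeR adjusted *P* from 0.0537 to 0.11. *Cd22*, *Cd72*, *Btk* and *Cd37* are not B cell specific in brain, since microglia use them too. *Pax5*, the transcription factor gene that defines the B cell lineage, was scarce, with 0 to 4 counts per library in NT + Sham and 0 to 11 in NT + Stroke. In HT + Stroke vs. HT + Sham 9 of the list were tested and 1 was called, where 0.544% of all genes tested were called higher. It was *Blnk*, an adaptor of B cell receptor signalling, with a log2 fold change of 0.58 ± 0.109 (edgeR adjusted *P* = 0.0293). That call was lost without HT + Sham 1, 3 or 4 or HT + Stroke 2 or 4, with an adjusted *P* from 0.0757 to 0.0976. Without the 3 libraries that went against their labels 5 of the 9 were called higher, beside 6.81% of all genes tested. The 5 were *Blnk* (0.60), *Cd22* (4.84), *Cd72* (2.05), *Btk* (1.68) and *Cd37* (1.60) on the log2 scale. The 3 libraries were picked by injury genes, so these calls are not independent of that choice.

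Of 14 plasma cell genes 10 passed the filter in NT + Stroke vs. NT + Sham, where 7 were called higher and 0 lower. Of all genes tested there, 14.4% were called higher. Beside *Jchain* and *Mzb1*, *Sdc1*, which encodes the plasma cell surface proteoglycan CD138, rose by 1.45, *Tnfrsf13b* by 1.06 and *Prdm1*, the regulator of plasma cell fate, by 0.96 on the log2 scale. *Prdm1* was no longer called without NT + Sham 1 or 2 or NT + Stroke 1 or 5, with an edgeR adjusted *P* from 0.0538 to 0.0808. *Xbp1*, which drives the secretory machinery in many cell types, had a log2 fold change of 0.01 (edgeR adjusted *P* = 0.928). *Slamf7* had 0 to 2 counts in NT + Sham and 8 to 31 in NT + Stroke. *Creld2* was called at only 0.26, and not without NT + Sham 6 (edgeR adjusted *P* = 0.0561). In NT + Sham, where *Mzb1* had 1 to 12 counts, *Creld2* had 254 to 310 and *Sdc1* 27 to 54. Calls in this list therefore need not come from plasma cells. The groups overlapped for *Derl3*, with 24 to 69 counts in NT + Sham and 33 to 74 in NT + Stroke. They overlapped for *Tnfrsf17* too, with 1 to 14 counts in NT + Sham and 4 to 15 in NT + Stroke. In HT + Stroke vs. HT + Sham 9 of the list were tested and 0 were called, and without the 3 libraries that went against their labels 1 was, *Sdc1* at 1.25. Of 8 genes of B cell precursors and receptor editing 1 was tested and 0 were called in NT + Stroke vs. NT + Sham.

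Of 10 genes for B cell survival and attraction 5 passed the filter in NT + Stroke vs. NT + Sham and 2 were called higher, *Ltb* by 1.11 and *Cxcl12*, a chemokine that retains plasma cells, by 0.73 on the log2 scale. *Tnfsf13b*, which encodes BAFF, had a log2 fold change of 0.30 (edgeR adjusted *P* = 0.439). *Cxcl13*, the chemokine that draws B cells into follicles, had 0 to 2 counts in NT + Sham and 9 to 37 in NT + Stroke. Of 8 receptors for immunoglobulin 6 were tested, and all 6 were called higher in that comparison, where 14.4% of all genes tested were called higher. *Fcgr4*, the receptor of myeloid cells for IgG2 antibodies, had 1 to 4 counts in NT + Sham and 46 to 69 in NT + Stroke, a log2 fold change of 4.10 ± 0.303 (edgeR adjusted *P* = 8.2e-08). *Fcgr2b* rose by 1.98, *Fcgr1* by 1.60, *Fcer1g* by 1.58 and *Fcgr3* by 1.36 on the log2 scale. Of the 6 receptors tested in HT mice 0 were called between stroke and sham, and all 6 were called higher without the 3 libraries that went against their labels, where 2 of the 5 survival and attraction genes were, too. Over all genes tested, 0.544% were called higher with all libraries and 6.81% without those 3. In that smaller comparison 4 of 6 microglia and 4 of 6 meningeal fibroblast genes were also called higher, against 0 of 6 each with all libraries. *Cd68*, by which those libraries were picked, is itself among the microglia genes. Calls of genes that go with injury are therefore not independent of that choice.

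Genes of other tissues and cells moved in the same comparison. Of 6 microglia genes 5 were called higher in NT + Stroke vs. NT + Sham, and the 6 summed to 259.7 to 383.7 CPM in NT + Stroke, against 182.9 to 198.6 CPM in NT + Sham. Of 6 tested genes of nasal mucosa and glands 4 were called higher in NT + Stroke vs. NT + Sham, and the 17 genes summed to 20.4 to 84.7 CPM in NT + Stroke, against 11.6 to 25.1 CPM in NT + Sham. Among the 4, *Omp* (log2 fold change 1.69, edgeR adjusted *P* = 0.0488) lost its call without any 1 NT + Sham library or NT + Stroke 1, 4 or 5. *Scgb1c1* (2.12, edgeR adjusted *P* = 0.0305) lost its call without NT + Sham 4 or 5 or NT + Stroke 1, 3 or 5. Of the 3 granulocyte genes tested 2 were called higher, *S100a8* by 3.00 and *S100a9* by 2.98 on the log2 scale. *S100a9* was not called without NT + Sham 1, 2, 3, 4 or 5 or NT + Stroke 1 (edgeR adjusted *P* from 0.0502 to 0.0587). The 61.7 CPM of the granulocyte list in NT + Stroke 5 was the highest of all libraries, where *Igkc* had 168 counts. NT + Stroke 1, HT + Stroke 3 and HT + Stroke 4 followed at 23.6, 19.9 and 18.8 CPM. These were the libraries with the most *Igkc*, at 891, 684 and 1009 counts. Meningeal fibroblast genes summed to 222 to 689 CPM in NT + Stroke, against 76.7 to 96.3 CPM in NT + Sham, and 5 of 6 were called higher. Haemoglobin and other blood genes gave 0 calls of 5 tested, with 42.6 to 185 CPM in NT + Stroke, against 66.8 to 95.1 CPM in NT + Sham. Of 5 tested T cell genes *Trac* (1.34) and *Cd3e* (1.12) were called higher and *Trbc2* (-0.85) lower on the log2 scale, and the call of *Cd3e* was lost without NT + Sham 5 or 6 or NT + Stroke 4 (edgeR adjusted *P* from 0.0507 to 0.0536). The part of these tissues and cells in the antibody genes, the B cell identity genes, the plasma cell genes and the receptors was not tested.

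Within the 12 stroke libraries, the genes whose log2(CPM + 1) went most closely with that of *Igkc* were ranked among 15514 genes, as a description. Among the members the Pearson correlation with *Igkc* was 0.93 for *Jchain*, 0.85 for *Cd79b*, 0.79 for *Cd79a*, 0.60 for *Ighm* and 0.39 for *Ighg2c*. Outside the lists and the antibody genes the 8 closest were *Dram1* (0.93), *Gm34776* (0.91), *Slamf8* (0.90), *Slpi* (0.90), *Hfe* (0.89), *Clec10a* (0.89), *H2-Q7* (0.89) and *Pyroxd2* (0.88). For *Cd79b* they were *Pml*, *Saa3*, *Iqgap1*, *Pik3r5*, *Tlr1*, *Vav2*, *Nfkbie* and *Myo1g*, at 0.91 to 0.93. The points share the libraries labelled HT + Stroke 1 and 6, which had counts of *Gfap* near those of sham libraries.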

How the data were processed

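RNA sequencing of poly(A) RNA from 24 brain sections, 6 per group, was read from 4 deposited tables. Reads had been mapped by the authors to the Ensembl mouse genome. The aligner is not given in the sources used here, and the submitters' processing notes name featureCounts 1.5.0-p3 and DESeq2 1.20.0. The counts as deposited are whole reads per gene without normalization. FPKM as deposited divides the authors' counts by gene length and library size. Tables were joined by gene ID (33981 genes). Of 48 comparisons of a library column between tables, 0 differed, and the 12 count and FPKM columns of HT + Sham stand in 1 table and were not compared. The 48 normalized-count and 8 group-mean columns were not used, nor were the authors' log2 fold changes and p-values. Positions of 8 of the 9 members matched GENCODE M21 on GRCm38, the source of the sequences.

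Groups came from the sample labels. Libraries were numbered as in the tables, and if they are not separate mice, p-values measure only the spread between libraries. Counts were tested in R 4.3.3 with edgeR 4.0.16 (filterByExpr with minimum count 10 and minimum total 15, TMM, robust quasi-likelihood fit, two-sided, Benjamini-Hochberg over all genes tested, threshold 0.05), on the libraries of the groups compared, and the code was tested on simulated data. Genes below the filter have log2 fold changes from an unfiltered fit (minimum total of 1 count). DESeq2 1.42.0, limma 3.58.1 on log2(FPKM + 1) and log2(FPKM + 0.1), other scalings and filters, a fit over all groups, and leaving out each library were alternatives. Leaving out the libraries against their labels, and single libraries for list genes, was added after seeing the data. Named genes were all members, up to 5 called genes per list with the largest fold change, all constant genes, the leading variable genes per library and over all, and the 8 genes closest to *Igkc* and to *Cd79b*. *Pax5*, *Xbp1*, *Slamf7*, *Creld2*, *Derl3*, *Tnfrsf17*, *Tnfsf13b* and *Cxcl13* were chosen from the lists after their values were seen. Members and lists were chosen with earlier results of these data known. No batch or date was given, and depths of 15922919 to 24865998 counts make counts under 10 imprecise, with intervals for counting error not covering differences between mice.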

Additional observations from a re-analysis of the deposited data

Results flagged for a closer look

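Of 44 sets of 6 libraries examined, 15 held a library whose gap to its nearest neighbour, as a share of the range, exceeded Dixon's critical value. Chance flags about 1 set in 20 for normally distributed values, a rate that need not hold for skewed, low counts such as these. The sets share libraries and genes. NT + Stroke 1 stood apart for 7 measures. It had 46.5 CPM of *Igkc* (next library 12.3), 2.98 CPM of *Ighg2b* (next 0.681), 14.1 CPM of *Ighg2c* (next 4.98), 9.24 CPM of *Jchain* (next 3.72) and 1.88 CPM of *Mzb1* (next 0.648). Its summed constant genes came to 169 CPM (next 89.5), and to 75.4 CPM (next 28.6) without *Ighm* and *Ighg2c*.

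NT + Sham 4 was highest in its group for *Igkc* at 2.84 CPM (next 0.794), for *Ighg2b* at 0.322 CPM (next 0.0577) and for *Ms4a1* at 0.322 CPM (next 0.0544). The last 2 values are 6 counts each. HT + Stroke 4 was highest for *Ighm* at 112 CPM (next 49.2) and for *Ighg2b* at 1.82 CPM (next 0.319). HT + Sham 6, whose injury genes went against its label, was highest for *Ighg2b* at 0.2 CPM (next 0.0617) and for the summed constant genes at 63.3 CPM (next 49.4). HT + Sham 4 was lowest for *Mzb1* at 0.181 CPM (next 0.522).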

How the results depend on the processing

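No paired analysis was possible because the sample labels carry no library numbers. The number of members called in NT + Stroke vs. NT + Sham was 3, and 2 to 4 when each library was left out in turn. It was 5 with DESeq2 and 1 with at least 10 counts in every library, a filter that keeps few members. The calls of *Igkc* and *Jchain* held under all alternatives in which they were tested. *Mzb1* was not called under 7 alternatives, both limma fits among them, and the cause was not tested. In the other 4 comparisons 0 members were called under every alternative. Without *Ighm* and *Ighg2c* the median summed CPM of constant genes was 1.72 in NT + Sham, 21.5 in NT + Stroke, 3.35 in HT + Sham and 9.19 in HT + Stroke. No called value reversed. Depth limits *Ighg2b*, *Ms4a1*, *Cd79b* and *Mzb1*, which had under 10 counts in most sham libraries.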
